A study of Chionodraco hamatus and Gymnodraco acuticeps and Trematomus bernacchii with 9 samples.

Results

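Tubulins are the proteins that microtubules are built from, and their transcripts were followed here in 3 Antarctic fish species. The tissue was the head kidney, where bony fish make most of their blood cells. A row of the count table was taken as a tubulin where its protein entry name begins with TBA, TBB or TBG and UniProt names the entry as an alpha, beta or gamma tubulin chain. Of 12653 rows, 17 met this rule: 7 alpha, 9 beta and 1 gamma. The groups were head kidney of Chionodraco hamatus, an icefish that lacks hemoglobin, of Gymnodraco acuticeps and of Trematomus bernacchii, both of which have red blood. Each species had 3 libraries of bulk total RNA, and the labels name no treatment, age or genotype beside the species. Nothing in the labels says that libraries of a species came from separate animals, so a p-value covers no more than the spread between these samples, which may be technical. The species differ in ancestry as well as in hemoglobin, and in this design these cannot be told apart.

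Microtubules are hollow polymers of alpha and beta tubulin, which are made and used as a tight pair. Gamma tubulin sits in ring complexes that start new microtubules. Alpha and beta tubulin each come from several closely related genes, called isotypes, and new chains are folded by a ring-shaped chaperonin and a set of cofactors before they can pair. Nucleated red cells and thrombocytes of fish carry a bundle of microtubules, the marginal band, under their rim, and dividing cells need tubulin for the spindle. Antarctic fish are known for microtubules that assemble and stay stable in the cold.

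Each row carries the entry name of a protein from some organism, such as a chicken or a frog, although every library is from an Antarctic fish. TBB1_NOTCO is an entry of Notothenia coriiceps, an Antarctic fish of the same family as T. bernacchii, TBB1_GADMO is one of the Atlantic cod and TBB_PSEAM one of the winter flounder. How reads were given to rows is not stated in the sources used here. Tubulin isotypes are nearly identical over long stretches, so reads of 1 fish gene can fall on several rows, and on different rows in different species. Values of a single row are therefore uncertain as values of a gene, and the sums over the alpha and over the beta rows are given first. In bulk tissue, fewer cells of a type and less RNA per cell cannot be told apart. Apart from the minor delta and epsilon chains, tubulin rows with other kinds of names were not analysed here.

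Total counts per library ran from 2501922 to 12055675, and 8662 rows were kept by the filter on low counts and tested. Levels are given as CPM, counts scaled to the depth of a library with TMM factors. Differences are log2 fold changes, tested by quasi-likelihood in edgeR, with p-values adjusted by Benjamini-Hochberg over all rows tested. A row was called where its adjusted p was under 0.05. Across rows, Spearman correlations between libraries of a species were 0.796 to 0.854 in C. hamatus and 0.941 to 0.973 in G. acuticeps, while T. bernacchii had 0.826 to 0.933. Marker rows of blood-forming tissue summed to 301 to 1345 CPM in C. hamatus, against 1147 to 1356 in G. acuticeps, where CEBPA_RAT was at 0, and 876 to 979 in T. bernacchii. The C. hamatus libraries differed among themselves in transcripts of adrenal cells, which fish hold in the head kidney. Chromaffin and neural markers (21 rows) summed to 34.6, 7403 and 3686 CPM in C. hamatus replicates 1, 2 and 3, and interrenal markers (5 rows) to 13.8, 25.9 and 24064 CPM. For tubulin rows, their sums and the lists of microtubule-related rows, results on C. hamatus are therefore also given without replicates 2 and 3. This was done where the call changed or the value moved by over 1.5-fold. Only replicate 1 of C. hamatus is then left, so these fits take their spread from the other species. A call lost there cannot be laid to the adrenal transcripts. Calls of marker rows were not refitted without these replicates.

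Alpha tubulin transcripts were highest in G. acuticeps, lower in C. hamatus and lowest in T. bernacchii, with no overlap between the species. The summed alpha rows stood at 2784, 1317 and 1125 CPM in the C. hamatus libraries, 4431, 5979 and 4783 CPM in G. acuticeps and 422, 327 and 729 CPM in T. bernacchii. The means were 1742 ± 908 CPM in C. hamatus, against 5064 ± 811 CPM in G. acuticeps libraries and 493 ± 210 in T. bernacchii (SD, n = 3 each). As a share of all counts of a library this was 0.174% ± 0.0527 in C. hamatus and 0.473% ± 0.0816 in G. acuticeps, while T. bernacchii had 0.0485% ± 0.0136. The alpha sum was thus a minor share of the RNA in every species but differed widely in size. It was higher in G. acuticeps than in T. bernacchii by 3.36 on the log2 scale (SE 0.55, adjusted p = 0.00126), and this call held under all alternatives, with adjusted p up to 0.00949. In C. hamatus it was lower than in G. acuticeps by the test, with a log2 difference of -1.54 (SE 0.51, adjusted p = 0.0343). That call was lost on leaving out C. hamatus replicate 2 (-1.38, adjusted p = 0.101) or 3 (-1.31, 0.0835), G. acuticeps replicate 1 (-1.65, 0.0555), 2 (-1.49, 0.0996) or 3 (-1.60, 0.0692), or T. bernacchii replicate 1 (-1.57, 0.0521). Without C. hamatus replicates 2 and 3 together it was -0.87 (adjusted p = 0.330), and over all alternatives the adjusted p ran from 0.00448 to 0.330. Against T. bernacchii, the alpha sum of C. hamatus was higher, with a log2 difference of 1.82 (SE 0.52, adjusted p = 0.0215). This call was lost without C. hamatus replicate 1 (1.34, adjusted p = 0.0519) or T. bernacchii replicate 1 (1.71, 0.0912) or 2 (1.59, 0.0607), in a range of 0.000564 to 0.0912, while without C. hamatus replicates 2 and 3 together the value was 2.52.

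Beta tubulin transcripts had another order, with the lowest sums in C. hamatus. The summed beta rows stood at 1292, 924 and 661 CPM in the C. hamatus libraries, 1696, 2119 and 2140 CPM in G. acuticeps and 2852, 1900 and 3308 CPM in T. bernacchii. All C. hamatus libraries were below all others, while G. acuticeps and T. bernacchii overlapped. The means were 959 ± 317 CPM in C. hamatus, against 1985 ± 251 CPM in G. acuticeps libraries and 2686 ± 718 in T. bernacchii (SD, n = 3 each). The log2 fold change of C. hamatus against T. bernacchii was -1.49 (SE 0.44, adjusted p = 0.0245) and passed the test. It missed the threshold without C. hamatus replicate 2 (-1.46, adjusted p = 0.0635) or 3 (-1.28, 0.0619), G. acuticeps replicate 2 (-1.45, 0.0610) or T. bernacchii replicate 1 (-1.45, 0.0763) or 3 (-1.32, 0.0781), and without C. hamatus replicates 2 and 3 together (-1.04, 0.222). The adjusted p ran from 0.000962 to 0.222 over all alternatives. Against G. acuticeps the beta sum of C. hamatus had a log2 difference of -1.05 (SE 0.43, adjusted p = 0.0738), which did not pass. It passed in DESeq2's own test (-1.04, adjusted p = 0.0181) and without C. hamatus replicate 1 (-1.40, 0.0357). On leaving out each library its adjusted p ran from 0.0357 to 0.166. Between G. acuticeps and T. bernacchii the value was -0.44 (SE 0.43, adjusted p = 0.470). In these fits of the sums, 41.9% of all features were called between C. hamatus and G. acuticeps, 32.4% between C. hamatus and T. bernacchii and 31.4% between G. acuticeps and T. bernacchii.

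The single gamma tubulin row was called in none of the pairs. TBG1_BOVIN, named for the gamma chain that starts microtubules at the centrosome, stood at 49.8, 33.3 and 54.0 CPM in C. hamatus and 74.5, 56.9 and 34.4 CPM in G. acuticeps, while T. bernacchii had 46.3, 60.1 and 54.0 CPM. The ranges of the 3 species overlapped. As a row it had log2 fold changes of -0.27 (SE 0.41, adjusted p = 0.629) for C. hamatus against G. acuticeps, -0.23 (SE 0.41, 0.714) for C. hamatus against T. bernacchii and 0.05 (SE 0.41, 0.957) for G. acuticeps against T. bernacchii.

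**Figure D1:**
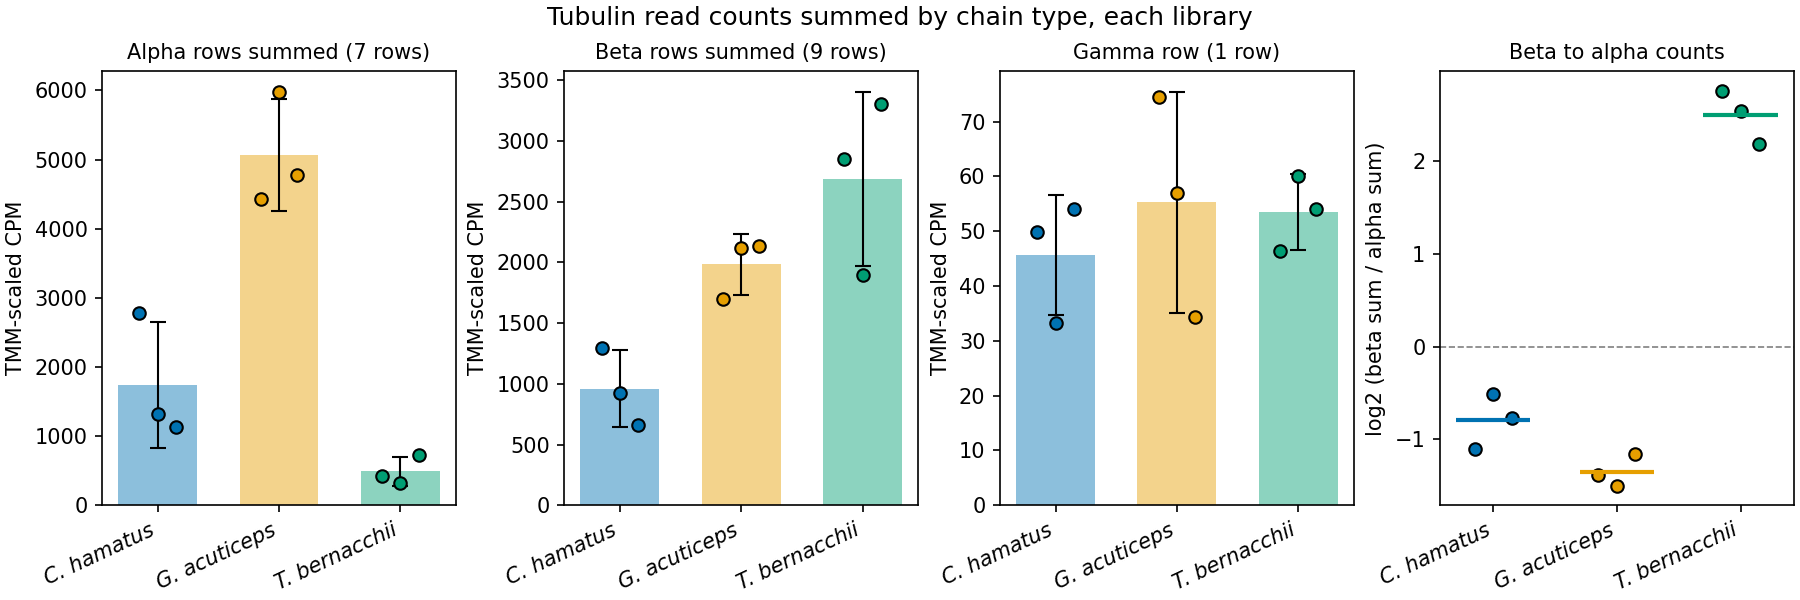
Summed level of the alpha, beta and gamma tubulin rows in each library, in TMM-scaled CPM (bars: mean, error bars: SD, points: the 3 libraries of a species), and the log2 ratio of the beta to the alpha sum (lines: mean). The alpha sums of the 3 species do not overlap, the beta sums of C. hamatus lie below all others, the gamma values overlap, and the ratio is above 0 in T. bernacchii only.

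The balance between beta and alpha counts separated T. bernacchii from the other species. The ratio of the beta sum to the alpha sum was 0.464, 0.701 and 0.588 in the C. hamatus libraries and 0.383, 0.354 and 0.447 in those of G. acuticeps, while T. bernacchii had ratios of 6.75, 5.81 and 4.54. Beta counts thus exceeded alpha counts in every T. bernacchii library and stayed below them in every library of C. hamatus and G. acuticeps. The ratio does not depend on the depth or scaling of a library, but it is a ratio of read counts with no correction for length and is not the ratio of the 2 proteins. It does depend on how reads were given to rows. In T. bernacchii, TBB1_GADMO held 11154, 5164 and 33944 of 11513, 5685 and 34307 beta counts, beside 1705, 979 and 7557 alpha counts. The excess of beta counts in T. bernacchii thus rests on that row. On the log2 scale the ratio averaged -0.80 ± 0.30 in C. hamatus and -1.35 ± 0.17 in G. acuticeps, while T. bernacchii averaged 2.49 ± 0.29 (SD, n = 3 each). The difference of C. hamatus from both red-blooded species together was -1.37 (2-sided exact permutation test, p = 0.476, adjusted over 4 comparisons 0.476) and did not pass. The mean of C. hamatus lay between those of the pooled species, so this value describes its distance from neither of them. Single pairs differed by 0.55 for C. hamatus minus G. acuticeps, -3.29 for C. hamatus minus T. bernacchii and -3.84 for G. acuticeps minus T. bernacchii. In each pair the groups did not overlap, and the 2-sided exact permutation p was 0.1 (adjusted 0.133), which is the smallest that 3 libraries against 3 allow.

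Which rows made up these sums differed from species to species. Among alpha counts, TBA8_CHICK held 70.2% ± 13.5 in C. hamatus, against 19.5% ± 5.94 in G. acuticeps libraries and 86.4% ± 15.2 in T. bernacchii (SD, n = 3 each). TBA1C_HUMAN held 7.59% ± 5.41 in C. hamatus, against 71.0% ± 3.02 in G. acuticeps. TBA4A_RAT contributed 17.0% ± 7.59 in C. hamatus and 5.09% ± 5.16 in T. bernacchii. So the leading alpha row was TBA8_CHICK in C. hamatus and T. bernacchii and TBA1C_HUMAN in G. acuticeps. Among beta counts, TBB1_NOTCO held 41.8% ± 11.4 in C. hamatus and 20.4% ± 0.255 in G. acuticeps. TBB1_GADMO held 23.4% ± 12.6 in C. hamatus and 63.5% ± 6.91 in G. acuticeps, while T. bernacchii had 95.6% ± 4.21. TBB_PSEAM added 26.7% ± 13.5 in C. hamatus. C. hamatus thus spread its beta counts over 4 rows of at least 5% each, G. acuticeps over 3 and T. bernacchii over 1. These are shares of counts with no correction for length, since no source gives the lengths behind the rows.

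**Figure D2:**
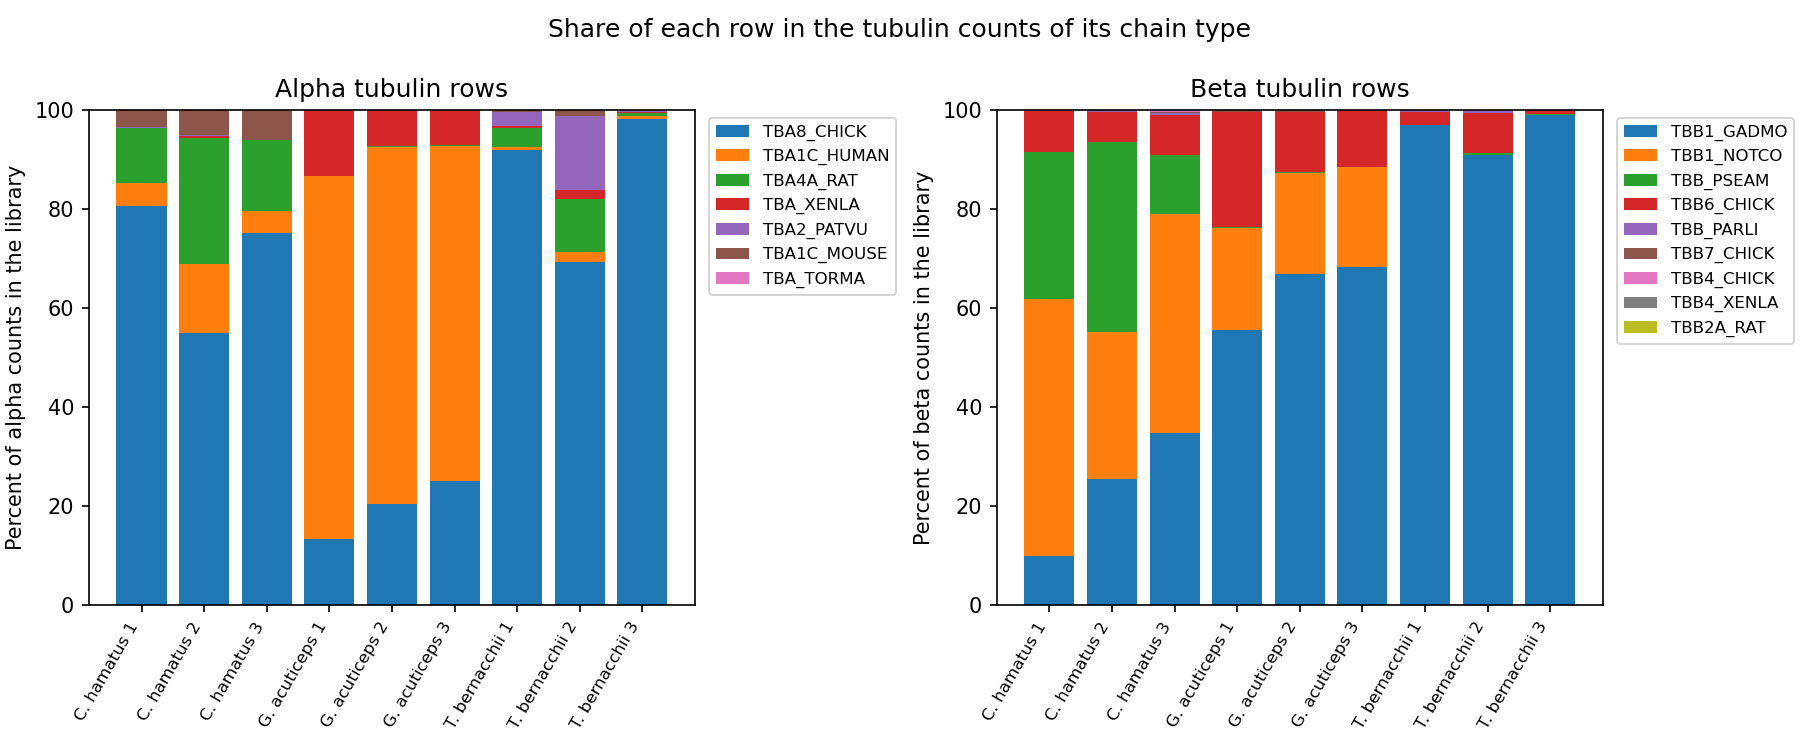
Share of the alpha counts and of the beta counts of each library that fell on each row, in percent, with libraries ordered by species from C. hamatus to T. bernacchii. Each column is a library and each colour a row. TBB1_GADMO fills nearly all of the beta column in T. bernacchii, with a mean of 95.6%, and 23.4% in C. hamatus.

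The sums leaned on these leading rows. With TBA8_CHICK left out of the alpha sum, the log2 fold changes were -3.11 for C. hamatus against G. acuticeps, 3.25 for C. hamatus against T. bernacchii and 6.36 for G. acuticeps against T. bernacchii. In each pair the row held the larger mean share of alpha counts in the lower species, so leaving it out had to widen the gap. That the directions stayed the same is therefore no support for the alpha order. TBA8_CHICK itself was called in no pair. A sum without TBA1C_HUMAN, which held 71.0% of the alpha counts of G. acuticeps, was not fitted. By counts, the libraries of G. acuticeps and C. hamatus overlapped without that row, so the gap between them rests on it. TBA8_CHICK alone stood at 2246 CPM in C. hamatus replicate 1. In the G. acuticeps libraries, the largest rows left were TBA8_CHICK at 588, 1213 and 1199 CPM and TBA_XENLA at 596, 445 and 342 CPM. The alpha order without TBA1C_HUMAN was not tested. With TBB1_GADMO left out of the beta sum, C. hamatus against T. bernacchii turned to 2.94, C. hamatus against G. acuticeps to 0.094 and G. acuticeps against T. bernacchii to 2.85. The row was picked after seeing the data. It held a mean of 95.6% of the beta counts in T. bernacchii, 63.5% in G. acuticeps and 23.4% in C. hamatus. The turns follow from these shares and are no test of the order. The beta sum of C. hamatus was thus the lowest only with the cod-named row in it. With the row kept, the adjusted p of the beta sum of G. acuticeps against T. bernacchii ran from 0.351 to 0.754 on leaving out each library.

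Of the 17 rows, 13 passed the filter on low counts, 6 alpha, 6 beta and the gamma row. In 8 rows every library had a count, and 6 rows had over 50 counts in each species. Between C. hamatus and G. acuticeps, 9 of the 13 were called, 4 higher and 5 lower in C. hamatus, beside 42% of all rows tested. Between C. hamatus and T. bernacchii, 6 were called, 5 higher and 1 lower, beside 32.4% of all rows. Between G. acuticeps and T. bernacchii, 8 were called, 5 higher and 3 lower in G. acuticeps, beside 31.4% of all rows. Called tubulin rows thus went both ways in every pair. The median log2 fold changes of the tested tubulin rows were 0.02, 1.29 and 0.05 in the same order of pairs, against 0.15, 0.02 and -0.12 for all rows. Without C. hamatus replicates 2 and 3 the numbers called were 7, 7 and 8. In both C. hamatus pairs TBA1C_MOUSE, TBA4A_RAT and TBB_PSEAM were higher in C. hamatus, beside 10.1% of all rows, and TBB1_GADMO was lower, beside 7.87%. These pairs share the C. hamatus libraries. The filter keeps rows that are high in a single species, such as TBA_XENLA in G. acuticeps or TBB_PSEAM in C. hamatus. Such rows entered the test through that species, so their calls are no independent result. The same filter was applied to all rows.

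**Figure D3:**
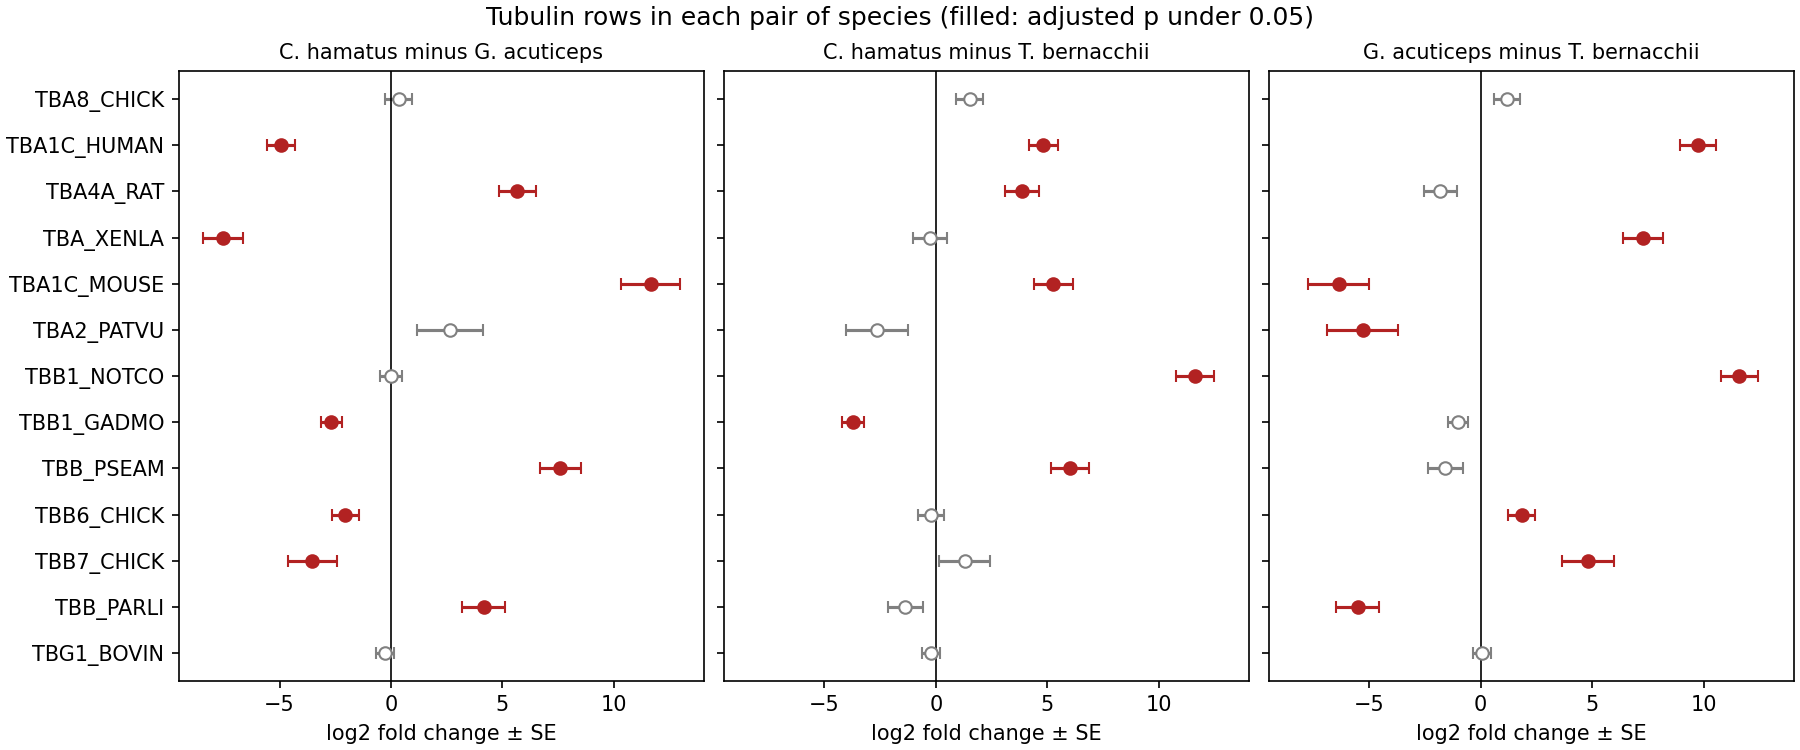
Log2 fold change of each of the 13 tested tubulin rows in the 3 species pairs, from edgeR's quasi-likelihood fit, with bars of 1 SE and filled points where the adjusted p was under 0.05. Values of rows near 0 in a species, such as TBA1C_MOUSE and TBB1_NOTCO, depend on the fit and are not bounds. TBB1_GADMO is the row that was lower in both C. hamatus pairs.

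TBA8_CHICK, named for an alpha isotype of chicken, was counted at over 200 CPM in all 9 libraries. It stood at 2246, 723 and 845 CPM in C. hamatus, against 588, 1213 and 1199 CPM in G. acuticeps libraries and 388, 227 and 714 CPM in T. bernacchii. C. hamatus replicate 1 was the highest library, and the ranges of C. hamatus and G. acuticeps overlapped. The log2 fold changes were 0.35 (SE 0.59, adjusted p = 0.668) for C. hamatus against G. acuticeps, 1.52 (SE 0.60, 0.0785) for C. hamatus against T. bernacchii and 1.17 (SE 0.60, 0.164) for G. acuticeps against T. bernacchii, and none passed. Against T. bernacchii it passed in DESeq2's own test (adjusted p = 0.0293) and without C. hamatus replicates 2 and 3 (2.36, adjusted p = 0.0382), and the adjusted p ran from 0.0293 to 0.276. The value against G. acuticeps was -0.42 without C. hamatus replicate 1 and 1.16 (adjusted p = 0.245) without replicates 2 and 3, and that against T. bernacchii was 0.85 without replicate 1.

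TBA1C_HUMAN, named for an alpha isotype that is widely expressed in mammals, held most of the alpha counts of G. acuticeps. It stood at 125.6, 182 and 49.7 CPM in C. hamatus and 3246, 4315 and 3231 CPM in G. acuticeps, while T. bernacchii had 2.23, 6.35 and 4.05 CPM. The 3 species were fully apart, with C. hamatus in between. The log2 fold changes were -4.92 (SE 0.63, adjusted p = 0.000335) for C. hamatus against G. acuticeps, 4.83 (SE 0.64, 0.000514) for C. hamatus against T. bernacchii and 9.75 (SE 0.79, 6.79e-05) for G. acuticeps against T. bernacchii. All 3 calls held under every alternative run, with adjusted p up to 0.00382. The mouse-named row of the same protein, TBA1C_MOUSE, had another pattern. It had 422, 199 and 346 counts in C. hamatus, against 0 in all G. acuticeps libraries and 8, 12 and 4 counts in T. bernacchii. It was at least 117-fold higher in C. hamatus than in G. acuticeps, against a floor of 3 counts per library (adjusted p = 0.000369), and higher than in T. bernacchii by 5.28 on the log2 scale (SE 0.86, adjusted p = 0.00247). The value against T. bernacchii was 6.14 without T. bernacchii replicate 2 and 4.68 without replicate 3. G. acuticeps was also lower than T. bernacchii in this row (adjusted p = 0.00872), where the level in T. bernacchii was at least 3.22-fold higher. Summed, the rows of this protein averaged 197 ± 69.4 CPM in C. hamatus, against 3597 ± 622 CPM in G. acuticeps libraries and 6.34 ± 3.49 in T. bernacchii (SD, n = 3 each), so the order of the human-named row was kept.

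TBA4A_RAT, named for an alpha isotype of mammals whose gene does not encode the usual last tyrosine, was high in C. hamatus and low in the other species. It stood at 307, 336 and 162 CPM in C. hamatus and 2.16, 4.49 and 8.59 CPM in G. acuticeps, while T. bernacchii had 16.6, 35.1 and 4.43 CPM. Every C. hamatus library was above every library of the red-blooded species. C. hamatus had log2 fold changes of 5.68 against G. acuticeps (SE 0.85, adjusted p = 0.000697; 6.28 without G. acuticeps replicate 3) and 3.86 against T. bernacchii (SE 0.78, adjusted p = 0.00417; 4.68 without T. bernacchii replicate 2). G. acuticeps against T. bernacchii was at -1.82 (SE 0.73, adjusted p = 0.0840), which passed in DESeq2's own test (adjusted p = 0.0496) and without T. bernacchii replicate 3 (-2.28, adjusted p = 0.0244), and was -0.97 without T. bernacchii replicate 2, in a range of 0.0244 to 0.341.

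TBA_XENLA, a frog-named alpha row, was high in G. acuticeps alone. It stood at 3.46, 3.70 and 0.395 CPM in C. hamatus, against 596, 445 and 342 CPM in G. acuticeps libraries and 1.49, 6.02 and 1.74 CPM in T. bernacchii. C. hamatus and T. bernacchii overlapped (log2 fold change -0.26, SE 0.77, adjusted p = 0.831), and both were far below G. acuticeps. The log2 fold changes were -7.54 for C. hamatus against G. acuticeps (SE 0.90, adjusted p = 0.000226) and 7.28 for G. acuticeps against T. bernacchii (SE 0.89, 0.000256; 8.13 without T. bernacchii replicate 2). TBA2_PATVU, an alpha row named for a limpet, had 26, 13 and 0 counts in C. hamatus and 0, 3 and 7 in G. acuticeps, while T. bernacchii had 49, 147 and 34. It was lower in G. acuticeps than in T. bernacchii (-5.29, SE 1.59, adjusted p = 0.0279). That call did not hold on leaving out G. acuticeps replicate 1 (-4.82, adjusted p = 0.0968), 2 (-5.40, 0.0912) or 3 (-5.57, 0.0907) and without T. bernacchii replicate 2 (-3.82, 0.103), in a range of 0.00117 to 0.103. The values for C. hamatus were 2.66 against G. acuticeps (SE 1.48, adjusted p = 0.176) and -2.63 against T. bernacchii (SE 1.38, 0.171). Against G. acuticeps this was 1.85 without C. hamatus replicate 1, 3.44 without replicates 2 and 3 and 1.73 with a replicate block. Against T. bernacchii it was -3.29 without C. hamatus replicate 1, -2.03 without replicate 3, -1.80 without replicates 2 and 3 and -1.17 without T. bernacchii replicate 2, and none of these values passed.

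**Figure D4:**
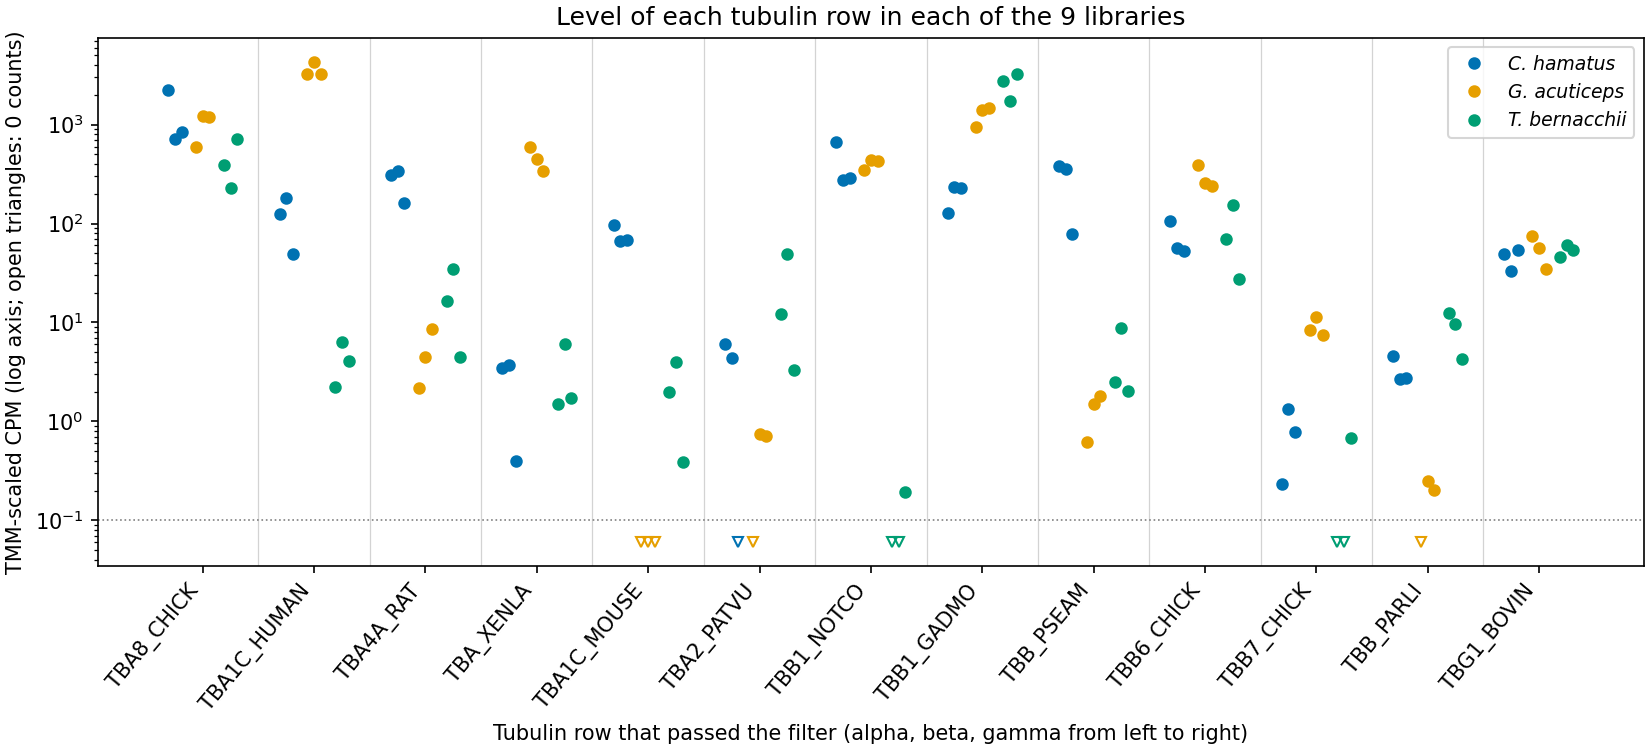
Level of each of the 13 tested tubulin rows in each library, in TMM-scaled CPM on a log axis, with the species from C. hamatus to T. bernacchii side by side. Points are libraries and open triangles are libraries with 0 counts. TBA1C_HUMAN lies between 3231 and 4315 CPM in G. acuticeps, and TBB1_NOTCO is at 0 in 2 T. bernacchii libraries and at 272 CPM or more in the other species.

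TBB1_NOTCO, the beta row named for a nototheniid fish, was abundant in C. hamatus and G. acuticeps and almost without counts in T. bernacchii. It had 2907, 810 and 1480 counts in C. hamatus, against 1131, 1742 and 4263 in G. acuticeps libraries and 0, 0 and 2 in T. bernacchii. As levels this was 670, 272 and 292 CPM in C. hamatus and 349.8, 435 and 431 CPM in G. acuticeps, while T. bernacchii had 0, 0 and 0.193 CPM. C. hamatus and G. acuticeps overlapped and had a log2 difference of 0.02 (SE 0.49, adjusted p = 0.985), which was -0.59 without C. hamatus replicate 1 and 0.72 without replicates 2 and 3. By depth-scaled counts the level was 3652-fold that of T. bernacchii in C. hamatus (95% exact counting interval 1010 to 30160, adjusted p = 0.000110) and 3623-fold in G. acuticeps (1003 to 29930, 6.68e-05). Both counts of T. bernacchii were in replicate 3. The fitted log2 value of C. hamatus against T. bernacchii was 11.63, and 12.34 without C. hamatus replicates 2 and 3. Without T. bernacchii replicate 3 the fitted values were 13.86 for both species, but T. bernacchii is then at 0, so that these depend on the fit and are not bounds. T. bernacchii, the species of the same family as the named fish, thus nearly lacked counts on its row.

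TBB1_GADMO, the beta row named for the Atlantic cod, ran the other way. It stood at 128, 236 and 230 CPM in C. hamatus, against 942, 1414 and 1459 CPM in G. acuticeps libraries and 2762, 1726 and 3272 CPM in T. bernacchii. No library of a species overlapped with those of another. C. hamatus was lower than G. acuticeps by the test (log2 fold change -2.68, SE 0.47, adjusted p = 0.00153) and lower than T. bernacchii (-3.71, SE 0.49, 0.000499). Without C. hamatus replicates 2 and 3 these were -3.32 and -4.32. G. acuticeps against T. bernacchii was at -1.02 (SE 0.44, adjusted p = 0.105). Summed over the cod and the Notothenia row, the level was 609 ± 163 CPM in C. hamatus and 1677 ± 334 CPM in G. acuticeps, while T. bernacchii had 2587 ± 788 (SD, n = 3 each). The sum hence kept the order of the cod-named row.

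TBB_PSEAM, the beta row named for the winter flounder, was high in C. hamatus and near 0 elsewhere. It stood at 384, 354 and 78.9 CPM in C. hamatus, against 0.619, 1.50 and 1.82 CPM in G. acuticeps libraries and 2.48, 8.69 and 2.02 CPM in T. bernacchii. Even the lowest C. hamatus library, replicate 3, was above all others. C. hamatus had log2 fold changes of 7.60 against G. acuticeps (SE 0.93, adjusted p = 0.000254) and 6.00 against T. bernacchii (SE 0.85, 0.000717; 6.90 without T. bernacchii replicate 2), and G. acuticeps against T. bernacchii was at -1.60 (SE 0.79, adjusted p = 0.149; -0.67 without T. bernacchii replicate 2).

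TBB6_CHICK is named for the divergent beta isotype that in chicken makes the marginal band of red cells and thrombocytes. It stood at 106, 56.5 and 53.3 CPM in C. hamatus and 395, 257 and 239.6 CPM in G. acuticeps, while T. bernacchii had 69.3, 154 and 27.8 CPM. G. acuticeps was above both other species without overlap, while C. hamatus and T. bernacchii overlapped. The log2 fold change of C. hamatus against G. acuticeps was -2.04 (SE 0.60, adjusted p = 0.0204). It lost its call without C. hamatus replicate 2 (-1.91, adjusted p = 0.0662) or 3 (-1.88, 0.0556), G. acuticeps replicate 1 (-1.81, 0.0644) or C. hamatus replicates 2 and 3 together (-1.49, 0.263), in a range of 0.00314 to 0.263. Against T. bernacchii, C. hamatus was at -0.21 (SE 0.58, adjusted p = 0.817), so a lower level in the icefish than in both red-blooded species was not found. G. acuticeps against T. bernacchii was at 1.83 (SE 0.60, adjusted p = 0.0400; 2.62 without T. bernacchii replicate 2). That call did not hold on leaving out G. acuticeps replicate 1 (1.59, adjusted p = 0.124), 2 (2.06, 0.0623) or 3 (2.06, 0.0576) or T. bernacchii replicate 1 (1.74, 0.112) or 3 (1.43, 0.0846), in a range of 0.00806 to 0.124. It was also lost with upper-quartile factors (1.79, adjusted p = 0.0525) and in a fit of only the 6 libraries of the pair (1.77, 0.0509). Red cell markers (9 rows) were highest in G. acuticeps and lowest in C. hamatus, without overlap between the species. They summed to 385, 827 and 325 CPM in C. hamatus, against 28605, 14086 and 7598 CPM in G. acuticeps libraries and 3672, 4928 and 2411 CPM in T. bernacchii, with GATA1_CHICK at 0 in C. hamatus and T. bernacchii. Set against G. acuticeps, all 8 tested markers were lower in C. hamatus, and 6 were lower when set against T. bernacchii, beside 16.8% and 14.8% of all rows. Thrombocyte markers (9 rows) summed to 972, 1714 and 530 CPM in C. hamatus and 518 to 642 in G. acuticeps, while T. bernacchii had 792 to 858, with THAS_PIG and FLI1_HUMAN at 0 in C. hamatus, GPV_RAT and THAS_PIG at 0 in G. acuticeps and GPV_RAT and GP1BA_CANFA at 0 in T. bernacchii. The part of these cells in the tubulin values was not tested.

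The remaining beta rows had few counts. TBB7_CHICK, another chicken beta isotype, had 1, 4 and 4 counts in C. hamatus, against 27, 46 and 74 in G. acuticeps libraries and 0, 0 and 7 in T. bernacchii, so it was counted mainly in G. acuticeps. G. acuticeps was above T. bernacchii by 4.82 on the log2 scale (SE 1.16, adjusted p = 0.0100), and all counts of T. bernacchii were in replicate 3. Without that library T. bernacchii is at 0, and the fitted values were 8.39 for G. acuticeps against T. bernacchii and 4.84 (adjusted p = 0.0694) for C. hamatus against T. bernacchii, neither of them a bound. C. hamatus was at -3.53 against G. acuticeps (SE 1.10, adjusted p = 0.0256), a call lost without C. hamatus replicate 1 (-3.15, 0.0692) or 3 (-3.57, 0.0544), G. acuticeps replicate 1 (-3.62, 0.0663), 2 (-3.41, 0.0882) or 3 (-3.68, 0.0655) or C. hamatus replicates 2 and 3 together (-5.18, 0.0948), in a range of adjusted p of 0.00503 to 0.0948, and at 1.29 against T. bernacchii (SE 1.14, adjusted p = 0.424; -0.34 without C. hamatus replicates 2 and 3). TBB_PARLI, named for a sea urchin, had 20, 8 and 14 counts in C. hamatus and 0, 1 and 2 in G. acuticeps, while T. bernacchii had 50, 29 and 44. G. acuticeps thus lacked nearly all of its counts. By depth-scaled counts C. hamatus was 19.4-fold over G. acuticeps (95% exact counting interval 6.19 to 97.7, adjusted p = 0.00605) and T. bernacchii was 40.4-fold over G. acuticeps (13.5 to 198.5, 0.00201), while C. hamatus against T. bernacchii was at -1.37 (SE 0.77, adjusted p = 0.203).

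The other 4 rows held 2 to 28 counts over all libraries and were not tested. TBB4_CHICK, named for the beta isotype of chicken neurons, had 0, 2 and 16 counts in C. hamatus and 0 in every other library. C. hamatus replicate 3, with 16 counts, also had an interrenal marker sum of 24064 CPM. The C. hamatus libraries with a count had high sums of chromaffin and neural markers, 7403 CPM in replicate 2 and 3686 CPM in replicate 3. The counts of TBB4_CHICK thus did not follow the order of these sums. Replicate 1 had 34.6 CPM, G. acuticeps 46.9 to 72.1 CPM and T. bernacchii 427, 77.2 and 483 CPM. Of those 21 marker rows, 3 were at 0 in C. hamatus (NFM_HUMAN, PNMT_HUMAN and TY3H_PHASP), 9 in G. acuticeps and 8 in T. bernacchii, with NFL_MOUSE and SCG2_BOVIN at 0 in both red-blooded species. Of 7 tested rows, 6 were higher in C. hamatus when set against G. acuticeps and 0 when set against T. bernacchii, beside 25.1% and 17.6% of all rows, and the part of nerve-like cells in these counts was not tested. TBB4_XENLA had 0 counts in C. hamatus, against 2 in G. acuticeps replicate 3 and 19, 6 and 1 in T. bernacchii. TBA_TORMA and TBB2A_RAT had 5 and 2 counts in all.

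No row of the machinery that folds tubulin was called. The list held the chaperonin subunits, prefoldin, which hands new chains to the chaperonin, the tubulin cofactors and the regulator ARL2, 18 rows of which 17 were tested. The count called was 0 in each of the 3 pairs with edgeR, beside 42%, 32.4% and 31.4% of all rows. At an unadjusted p under 0.05 there were 2, 1 and 1, and DESeq2's own test called 1 in each pair. Leaving out C. hamatus replicate 1 gave 2, 1 and 0 calls, leaving out T. bernacchii replicate 2 gave 0, 1 and 1, leaving out G. acuticeps replicate 1 gave 1 in the first pair, and leaving out C. hamatus replicate 3, alone or with replicate 2, gave 1 in the last. Log2 fold changes lay between -1.27 and 1.10 for C. hamatus against G. acuticeps, -1.48 and 0.55 for C. hamatus against T. bernacchii and -1.62 and 0.89 for G. acuticeps against T. bernacchii. Their medians were 0.08, -0.33 and -0.28. TBCA_BOVIN, the cofactor that holds beta chains, averaged 74.9 ± 31.7 CPM in C. hamatus, against 67.7 ± 19.0 CPM in G. acuticeps libraries and 82.0 ± 6.12 in T. bernacchii (SD, n = 3 each). TBCB_MOUSE, which holds alpha chains, averaged 84.8 ± 0.705 CPM in C. hamatus and 39.6 ± 10.5 CPM in G. acuticeps, while T. bernacchii had 72.2 ± 41.4, with a log2 fold change of 1.10 for C. hamatus against G. acuticeps (SE 0.47, adjusted p = 0.0817). TBCD_MOUSE, which takes over the beta chain for pairing, averaged 129 ± 44.7 CPM in C. hamatus, against 94.2 ± 21.9 CPM in G. acuticeps libraries and 125 ± 69.3 in T. bernacchii. The differences between its means were smaller than the largest of these SDs. TCPA_PALPA, a subunit of the chaperonin, averaged 628 ± 273 CPM in C. hamatus and 1297 ± 551 CPM in G. acuticeps, while T. bernacchii had 977 ± 333. The lowest value of G. acuticeps against T. bernacchii was that of TCPQ_CHICK, another subunit, at -1.62 (adjusted p = 0.0511), with levels of 258 ± 141 CPM in G. acuticeps and 796 ± 271 in T. bernacchii. The row not tested was TBCE_DANRE, with 0 counts in C. hamatus and T. bernacchii and 0, 1 and 6 in G. acuticeps.

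**Figure D5:**
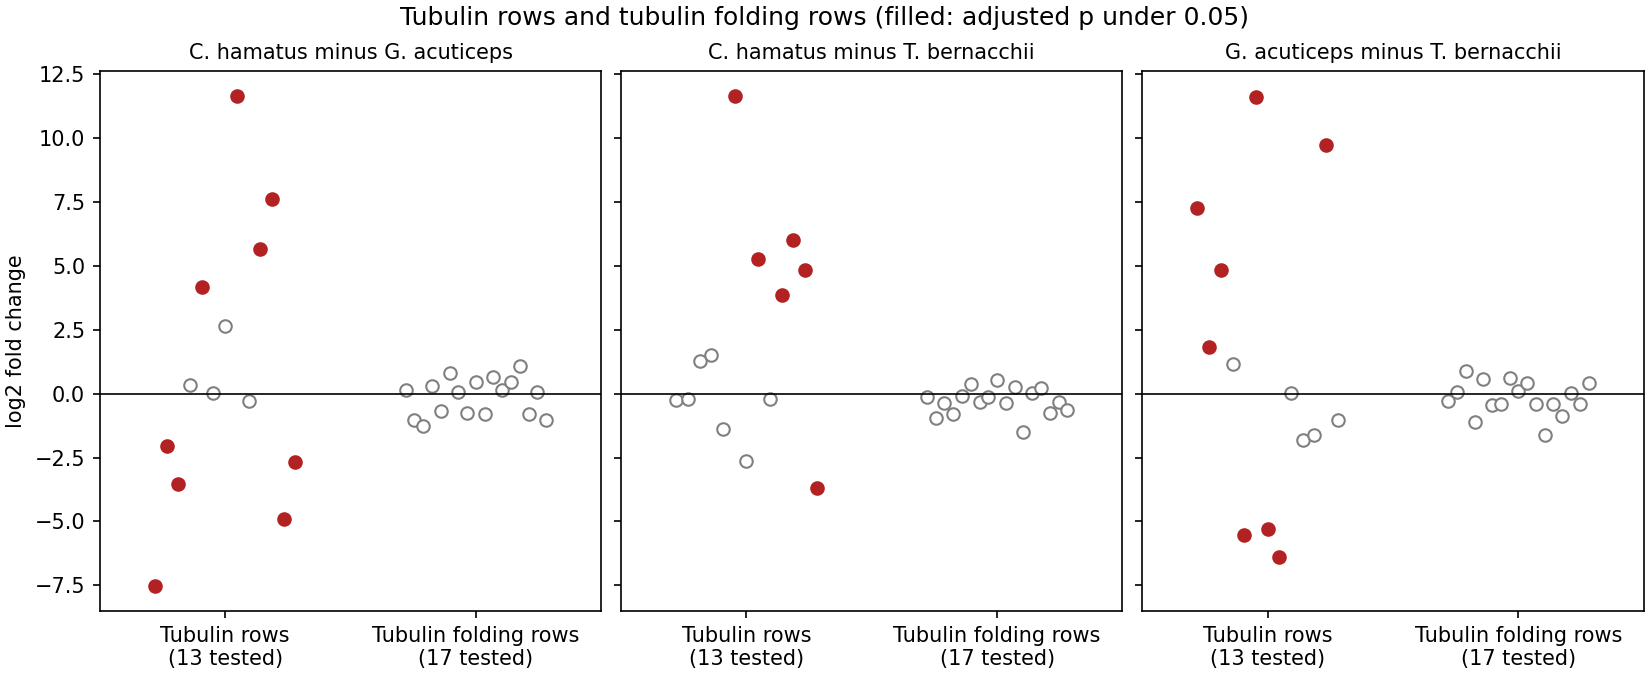
Log2 fold changes of the 13 tested tubulin rows (left in each panel) and the 17 tested rows of the folding list (right) in the 3 species pairs, with filled points where the adjusted p was under 0.05. No folding row was called, and their values lie between -1.62 and 1.10, while called tubulin rows lie on both sides of 0. Values of rows near 0 in a species depend on the fit.

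Rows of the complexes that hold gamma tubulin were lower in C. hamatus where they were called in its pairs. The list also held the minor delta and epsilon tubulins, which were not among the called rows. The delta row, TBD_XENTR, was at -0.33 against G. acuticeps (adjusted p = 0.652) and -0.39 against T. bernacchii (0.621). The epsilon row, TBE_HUMAN, was not tested. Over the whole list, the shares called in either direction lay below those of all rows, while the shares called lower in C. hamatus lay above. Of 14 tested rows of 17, 4 were lower and 0 higher in C. hamatus than in G. acuticeps, the same 4 were lower and 0 higher than in T. bernacchii, and 1 was higher and 0 lower in G. acuticeps than in T. bernacchii. These are 28.6%, 28.6% and 7.14% of the tested rows, beside 42%, 32.4% and 31.4% of all rows, and the 4 shared ones stand beside 7.87% of all rows that were lower in both C. hamatus pairs. The medians were -1.98, -1.40 and 0.25, against 0.15, 0.02 and -0.12 for all rows. Without C. hamatus replicates 2 and 3 the calls in the C. hamatus pairs numbered 2 and 1, without T. bernacchii replicate 3 there were 7 in the first pair and 5 in the last, and the last pair had 2 on leaving out any single C. hamatus library or G. acuticeps replicate 1. HAUS3_HUMAN, a subunit of augmin, which places gamma tubulin along spindle microtubules, had 1, 0 and 8 counts in C. hamatus, against 114, 192 and 393 in G. acuticeps libraries and 157, 39 and 487 in T. bernacchii. Its log2 fold changes were -5.90 against G. acuticeps (adjusted p = 0.00108) and -5.59 against T. bernacchii (0.00183), with -8.03 and -7.71 without C. hamatus replicate 3 and -7.35 and -7.02 without replicates 2 and 3. GCP5_HUMAN, a subunit of the gamma tubulin ring, had 41, 12 and 62 counts in C. hamatus and 130, 188 and 676 in G. acuticeps, while T. bernacchii had 238, 47 and 627. Its log2 fold changes were -2.58 (SE 0.63, adjusted p = 0.00823) and -2.38 (SE 0.62, 0.0146), and both calls were lost without C. hamatus replicates 2 and 3 together (adjusted p = 0.0822 and 0.117, the highest over all alternatives). HAUS2_HUMAN, another augmin subunit, had 35, 0 and 10 counts in C. hamatus, against 81, 107 and 333 in G. acuticeps libraries and 171, 40 and 393 in T. bernacchii. It was at -3.06 against G. acuticeps (adjusted p = 0.0338) and -3.19 against T. bernacchii (0.0354), and each call was lost in several alternatives, with adjusted p up to 0.136 and 0.134. Among these were the fits without C. hamatus replicate 3 (-2.77, adjusted p = 0.0798, and -2.90, 0.0863) or any G. acuticeps library, and without T. bernacchii replicate 1 (-2.92, 0.0833) or 3 (-3.04, 0.0724) in that pair, while without C. hamatus replicate 1 the values were -4.74 and -4.78 and without replicates 2 and 3 together -1.82 and -1.94. The fourth was NEDD1_HUMAN, which ties the ring complex to the centrosome and was named after its values were seen. It averaged 40.9 ± 13.6 CPM in C. hamatus and 455 ± 59.5 CPM in G. acuticeps, while T. bernacchii had 128 ± 28.8 (SD, n = 3 each), with log2 fold changes of -3.47 (adjusted p = 0.000250) and -1.65 (0.00916). The last of these was -1.21 (adjusted p = 0.140, the highest over all alternatives) without C. hamatus replicates 2 and 3. Markers of dividing cells (15 rows) summed to 1415, 339 and 492 CPM in C. hamatus, against 3148 to 4629 in G. acuticeps libraries and 1312 to 2326 in T. bernacchii, with CCNB2_RANJA at 0 in both red-blooded species. Of 14 tested rows, 8 were lower in C. hamatus when set against G. acuticeps and 4 when set against T. bernacchii, which is 57.1% and 28.6% of them, beside 16.8% and 14.8% of all rows lower. The part of dividing cells in the values of this list was not tested.

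Proteins that bind, cut, modify or walk on microtubules differed both ways between the species. Of the rows named here and in the next paragraphs, MAP6_CHICK, CBPC1_CHICK, DC1I2_MOUSE, KIFC3_MOUSE and KI16B_HUMAN entered the test through C. hamatus. They were also picked for large changes among called rows, so their calls are no independent result. Of 18 tested rows of microtubule-associated and end-binding proteins, 8 were higher and 4 lower in C. hamatus when set against G. acuticeps, 5 were higher and 3 lower when set against T. bernacchii, and 3 higher and 5 lower in G. acuticeps than in T. bernacchii. The shares called were 66.7%, 44.4% and 44.4%, beside 42%, 32.4% and 31.4% of all rows, and the medians were 1.05, 0.89 and -0.80. Without C. hamatus replicates 2 and 3 the calls in the C. hamatus pairs numbered 7 and 5, and the 8 of the last pair were 3, 2, 4 and 5 without G. acuticeps replicate 1, 2 or 3 or T. bernacchii replicate 2. MAP6_CHICK, named for a protein that makes microtubules stable in the cold in mammals, had 92, 95 and 86 counts in C. hamatus and 1, 0 and 0 in G. acuticeps, while T. bernacchii had 4, 0 and 8. By depth-scaled counts it was 377.8-fold over G. acuticeps in C. hamatus (95% exact counting interval 67.2 to 14980), and it was higher than in T. bernacchii by 5.17 on the log2 scale (SE 1.08, adjusted p = 0.00493). The fitted value against G. acuticeps was 7.98, with 7.07 without G. acuticeps replicate 3. Without replicate 1, which holds the only count, it was 9.98 and is no bound. TACC3_XENLA, a spindle protein, had 0, 0 and 58 counts in C. hamatus, against 1390, 1120 and 2076 in G. acuticeps libraries and 628, 177 and 1852 in T. bernacchii. Its log2 fold changes were -6.26 against G. acuticeps (adjusted p = 0.00582) and -5.04 against T. bernacchii (0.0163), and the value against T. bernacchii was -4.42 without C. hamatus replicate 1. All counts of C. hamatus came from replicate 3, and without it the fitted values were -13.65 and -12.42 (-13.74 and -12.50 without replicate 2 as well), which are not bounds since C. hamatus is then at 0. TPPP_HUMAN, which bundles microtubules, had 0, 0 and 14 counts in C. hamatus and 722, 650 and 1172 in G. acuticeps, while T. bernacchii had 50, 44 and 93. The log2 fold changes were -7.33 (adjusted p = 0.000722) and -3.52 (0.0193), the last of which was -2.90 without C. hamatus replicate 1 and lost its call in a fit of only the 6 libraries of the pair (adjusted p = 0.103, the highest over all alternatives). Here too all counts of C. hamatus came from replicate 3, without which the fitted values were -12.78 and -8.96 (-12.88 and -9.04 without replicate 2 as well), again no bounds.

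Among 14 tested rows of severing and modifying enzymes, 4 were higher and 3 lower in C. hamatus when set against G. acuticeps, 5 were higher and 2 lower when set against T. bernacchii, and 3 higher and 2 lower in G. acuticeps than in T. bernacchii. That is 7 of 14 in each C. hamatus pair, beside 42% and 32.4% of all rows, and 35.7% in the last pair, near the 31.4% of all rows. The medians were 0.47, -0.31 and -1.26. Leaving out G. acuticeps replicate 1 or 2 gave 4 calls in the first pair, and leaving out any G. acuticeps library gave 3 in the last. CBPC1_CHICK, named for the enzyme that trims glutamate chains from tubulin, had 141, 120 and 206 counts in C. hamatus, against 0, 1 and 1 in G. acuticeps libraries and 0, 0 and 9 in T. bernacchii. It was 323-fold over G. acuticeps in C. hamatus by depth-scaled counts (95% exact counting interval 88.95 to 2676), and higher than in T. bernacchii by 6.52 on the log2 scale (SE 1.08, adjusted p = 0.00164), where all 9 counts were in replicate 3. Without that library the fitted value was 10.42, with T. bernacchii at 0, and is no bound. KTNA1_SALSA, the catalytic subunit of the severing enzyme katanin, had 46, 43 and 24 counts in C. hamatus and 163, 108 and 160 in G. acuticeps, while T. bernacchii had 394, 230 and 559. Its log2 fold change was -2.94 against T. bernacchii (adjusted p = 0.00428). Against G. acuticeps it was -1.65 (adjusted p = 0.0402). That call was lost without C. hamatus replicate 1 (-1.77, 0.0635) or 3 (-1.32, 0.0897), or G. acuticeps replicate 1 (-1.15, 0.153) or 2 (-1.82, 0.0647). It was also lost with upper-quartile factors (-1.52, adjusted p = 0.0561) and with at least 50 counts in 3 libraries (-1.55, 0.0521). A fit of only the 6 libraries of the pair lost it too (-1.62, 0.0616). Without C. hamatus replicates 2 and 3 together the value was -1.55. The lowest adjusted p over all alternatives was 0.0181.

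Motor rows were called in both directions in every pair. The list held subunits of kinesins, dyneins and dynactin, and adaptors and regulators of dynein. Of its 31 tested rows, 14 were higher and 9 lower in C. hamatus when set against G. acuticeps, 12 were higher and 5 lower when set against T. bernacchii, and 4 higher and 3 lower in G. acuticeps than in T. bernacchii. The shares called in the C. hamatus pairs were 74.2% and 54.8%, beside 42% and 32.4% of all rows, while the 22.6% of the last pair lay below the 31.4% of all rows. The medians were 0.46, 0.61 and 0.18. Without C. hamatus replicates 2 and 3 the calls in the C. hamatus pairs numbered 13 and 8, and the last pair had 4 without G. acuticeps replicate 1 or 2. Both C. hamatus pairs shared 17 calls of 1 direction, 12 higher and 5 lower, which is 54.8% of the tested motor rows beside 18% of all rows, and 6 of these rows had at most 3 counts in a species. DC1I2_MOUSE, an intermediate chain of cytoplasmic dynein, had 281, 206 and 262 counts in C. hamatus and 0 in all other libraries, a level at least 93.8-fold higher than that of G. acuticeps and at least 91.2-fold higher than that of T. bernacchii. The cattle-named row of that protein, DC1I2_BOVIN, was counted in all species, with 53, 80 and 206 counts in C. hamatus, against 83, 84 and 137 in G. acuticeps libraries and 70, 42 and 216 in T. bernacchii. KIFC3_MOUSE, a minus-end kinesin, likewise had 179, 123 and 244 counts in C. hamatus and 0 elsewhere, at least 66.0-fold and 64.2-fold higher. Its human-named row, KIFC3_HUMAN, had 88, 84 and 258 counts in C. hamatus and 39, 40 and 61 in G. acuticeps, while T. bernacchii had 24, 13 and 104. Each of these rows at 0 thus stood beside a row of the same protein that was counted in all species. KI16B_HUMAN, an endosome kinesin, had 134, 96 and 600 counts in C. hamatus, against 2, 1 and 5 in G. acuticeps libraries and 0, 0 and 25 in T. bernacchii. The log2 fold changes were 6.97 (adjusted p = 0.00239) and 5.91 (0.00485). They were 6.02 and 5.01 without C. hamatus replicate 3 and 6.00 and 5.02 without replicates 2 and 3, and the call against T. bernacchii was lost without both (adjusted p = 0.0542, the highest over all alternatives). All counts of T. bernacchii were in replicate 3, without which the fitted value was 11.10 and is no bound.

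Markers of other tissues also differed between the groups. Skeletal muscle markers (17 rows) summed to 471 to 987 CPM in C. hamatus and 20981 to 34219 in G. acuticeps, while T. bernacchii had 477 to 2585, with CASQ1_HUMAN at 0 in C. hamatus and CASQ1_RAT at 0 in T. bernacchii. Of 13 tested muscle rows, C. hamatus had 9 lower and 1 higher when set against G. acuticeps, and 6 lower and 1 higher when set against T. bernacchii, beside 16.8% and 14.8% of all rows lower and 25.1% and 17.6% higher. G. acuticeps against T. bernacchii had 2 of these rows higher and 0 lower, which is 15.4% beside 31.4% of all rows, with a median of 0.76. G. acuticeps was thus the species with the highest muscle sums. Cilium markers (16 rows) summed to 65.9 to 132 CPM in C. hamatus, against 54.2 to 69.4 in G. acuticeps libraries and 67.4 to 88.8 in T. bernacchii, and kidney tubule markers (6 rows) to 98.6 to 392, 57.2 to 88.9 and 111 to 229 CPM in the same order. Of the cilium rows 3, 2 and 4 were at 0, and of the tubule rows 1, 4 and 4. Of 11 tested cilium rows, C. hamatus had 2 higher and 2 lower when set against G. acuticeps, and 4 higher and 2 lower when set against T. bernacchii. G. acuticeps against T. bernacchii had 3 higher and 1 lower. The shares called were 36.4%, 54.5% and 36.4%, beside 42%, 32.4% and 31.4% of all rows, with medians of 0.35, 2.70 and -0.05. The part of these tissues in the tubulin values was not tested.

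Some rows had a pattern over the 9 libraries much like that of a leading tubulin row. Most like TBB1_NOTCO were RS26_RAT, SC61G_XENLA, DCNL5_HUMAN, LFNG_DANRE and ZCHC7_XENLA, with Pearson correlations of log2 CPM of 0.998 to 0.996. All of these had 6 or 0 counts in T. bernacchii. Most like TBA1C_HUMAN were MACD2_XENLA (0.991), DCC_HUMAN, MLP3A_RAT, GFOD1_XENTR and GNAO_GEOCY (0.978). Most like TBB1_GADMO were TBC25_HUMAN and TYDP2_DANRE (each 0.988), CC125_DANRE, WDR91_DANRE and HDAC2_HUMAN (0.985). The named rows are the top of larger sets. Outside the tubulins, 135 rows had a correlation over 0.95 with TBB1_NOTCO, 51 with TBA1C_HUMAN and 71 with TBB1_GADMO. With 3 libraries of each of 3 species, these correlations describe the species means first of all.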

How the data were processed

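The authors deposited a table of read counts, whole numbers per protein entry and library with no normalization, whose 9 columns were matched to the samples by title. The labels' protocols give flash freezing, Trizol extraction and an Illumina TruSeq kit. Neither aligner nor reference nor counter is given in the sources used here. Libraries held 2501922 to 12055675 counts. A floor of 3 counts per library equals 0.764 CPM on average in C. hamatus, against 0.660 CPM in G. acuticeps and 0.678 CPM in T. bernacchii.

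Counts of all 9 libraries were filtered (filterByExpr, 8662 rows left), scaled by TMM and fitted together in edgeR 4.0.16 (R 4.3.3; quasi-likelihood test, Benjamini-Hochberg adjustment over all rows, 1 estimate of the spread). For the sums, the tubulin rows were replaced in the table by their alpha, beta and gamma sums, which left 8652 features. The SE is the absolute log2 fold change over the square root of the F statistic and is approximate. The beta to alpha ratio was tested by exact permutation with scipy 1.17.1. Where a species had 1 to 3 counts, the ratio of depth-scaled counts has an exact 95% binomial interval; where it had 0, the fold is a lower bound against the floor. Intervals and floors cover counting error only.

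Every tubulin row is named. Of the other lists, up to 3 rows are named, those with the largest changes among those called alike in the C. hamatus pairs, with a mean of at least 50 counts in the higher species; of the folding list, in which none was called, rows were named after their values were seen. The rows most like a tubulin row are the 5 with the highest Pearson correlation. The members and lists were chosen with earlier results of these data known. The fit was tested on simulated counts. Alternatives were DESeq2 1.42.0 (size factors, and its test), factors from the upper quartile, no filter, at least 50 counts in 3 libraries, leaving out the 20 highest rows, fitting the 6 libraries of a pair, a replicate block and leaving out each library. Added after seeing the data were leaving out C. hamatus replicates 2 and 3, and sums without TBA8_CHICK or TBB1_GADMO. Figures were drawn with matplotlib 3.10.9. No sequences are printed.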

Additional observations from a re-analysis of the deposited data

How the results depend on the processing

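Same-numbered libraries of different species did not clearly deviate together (correlations of -0.201 to 0.245 over 9 pairs, against -0.160 to 0.212 over 18 pairs with other numbers). The labels do not say what the numbers stand for. With so few libraries this check cannot exclude a pairing by number. With a replicate block the alpha sum was at -1.60 for C. hamatus against G. acuticeps and 1.80 against T. bernacchii, and the beta sum at -1.49 against T. bernacchii, each past the threshold no longer (adjusted p = 0.0594, 0.0504 and 0.0561); TBB1_NOTCO stood at -0.081 for C. hamatus against G. acuticeps, and the call of TBA2_PATVU was lost. The alpha sum of C. hamatus against G. acuticeps also missed the threshold with upper-quartile factors (-1.41), with the 6 libraries of the pair (-1.51) and without C. hamatus replicates 2 and 3 (-0.87), and the beta sum against T. bernacchii with the 6 libraries (-1.45) and without those replicates (-1.04). The beta sum of C. hamatus against G. acuticeps passed in DESeq2's own test (-1.04). Without TBB1_GADMO the beta sums turned to 0.094, 2.94 and 2.85 for C. hamatus against G. acuticeps, C. hamatus against T. bernacchii and G. acuticeps against T. bernacchii. With at least 50 counts in 3 libraries, 5 tubulin rows were called between G. acuticeps and T. bernacchii, since fewer were tested. Leaving out each library gave -2.12 to -1.31, 1.34 to 2.20 and 3.14 to 3.77 for the alpha sum in the same order of pairs, -1.40 to -0.85, -1.73 to -1.28 and -0.63 to -0.25 for the beta sum, and 7 to 9, 6 and 6 to 8 tubulin rows called; the ratio difference of C. hamatus ran from -1.78 to -0.93. Uncalled rows near 0 changed sign. For C. hamatus against G. acuticeps, TBB1_NOTCO was at -0.084 with no filter and -0.041 without the 20 highest rows (-0.59 to 0.24 leaving out each library), and TBA8_CHICK ran from -0.42 to 0.62. For C. hamatus against T. bernacchii, TBA_XENLA ran from -0.62 to 0.56 (0.28 without C. hamatus replicates 2 and 3), TBB6_CHICK from -0.64 to 0.56 (0.38) and TBB7_CHICK was at -0.34 without those replicates. For G. acuticeps against T. bernacchii, TBG1_BOVIN was at -0.0097 with at least 50 counts, -0.0049 with the 6 libraries and -0.21 to 0.38 leaving out each library. Where not stated, the cause was not tested. Depth limits rows under 50 counts, and how reads were divided among near-identical rows is not known here.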
